A study of Mus musculus with 6 samples.

Results

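Costunolide (COS), a sesquiterpene lactone of costus root, was given to mice ahead of a toxic dose of acetaminophen (APAP, paracetamol), and their liver RNA was set against that of mice given APAP alone. The comparison used 4 of the 6 poly(A) RNA libraries of the study, COS+APAP replicates 2 and 3 and APAP replicates 1 and 3. All libraries came from liver of C57BL/6 mice, and no other genotype, age or sex is given in the sources used here. APAP mice received 400 mg/kg into the peritoneum 6 h before collection. COS+APAP mice received the same dose and time of APAP after 20 mg/kg COS at 12 h and again at 40 min before it. The 2 control libraries, replicates 1 and 3 of mice labelled as normal, had neither agent, and their values stand here only for reference. Of 55401 genes in the table, the 9852 with a mean of at least 1 FPKM over the 4 libraries were described and tested. FPKM are fragments counted per kilobase of transcript and scaled to the depth of the library. A gene that was high in 1 group could pass this filter through that group alone, and 952 of the 9852 genes had a mean under 1 FPKM in the other.

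The labels do not agree on which libraries were pretreated. Groups were taken here from the source name, title and treatment of each library. Against this, the description of the treatments assigns COS to samples 5 and 6, and in accession order these positions hold the libraries titled as models and labelled APAP. If that description were right, every sign below would be exchanged. The titles of both COS+APAP libraries carry the prefix 2 and those of the other 4 the prefix 1, so a batch that goes with this prefix and COS cannot be told apart. Nothing in the sources used here tells whether libraries of 1 group stem from separate animals, so p-values measure the spread between libraries, which may be technical. With 2 libraries against 2, an exact permutation test of 1 gene cannot go below p = 0.33. The tests below are 2-sided quasi-likelihood F tests in edgeR, adjusted over the 9852 genes by the method of Benjamini and Hochberg, and "rose", "fell" and "called" are used of genes with an adjusted p below 0.05.

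In liver, most APAP is conjugated to glucuronide or sulfate, and a part is oxidised by cytochrome P450 enzymes, above all the products of *Cyp2e1* and *Cyp1a2*, to a quinone imine that uses up glutathione and binds proteins. These enzymes are concentrated in hepatocytes around the central vein, where APAP necrosis begins. Kinases of the JNK family and the transcription factors NRF2, ATF4 and p53 are among the known responders in injured hepatocytes, and hepatocytes also make the acute phase proteins of blood under the control of IL-6, STAT3 and C/EBP factors. Costunolide carries an alpha-methylene-gamma-lactone, a group that can react with thiols.

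The libraries held 71115112 to 76669799 estimated counts, and 98.1% to 98.6% of them fell in the tested genes. *Alb*, the gene of serum albumin and a defining marker of hepatocytes, was at 26619 to 39526 FPKM in the 4 libraries, while the extraction text speaks of an adipose type and every tissue label of liver. *Fabp4*, a fatty acid binding protein of adipocytes and endothelium, was at 4.83 to 6.27 FPKM, and 8 of 14 markers of pancreas, kidney, heart, gut and fat were at 0 in all 4 libraries. *Nnt*, a mitochondrial transhydrogenase whose gene is disrupted in the C57BL/6J substrain, was at 0.42 and 15.1 FPKM in APAP replicates 1 and 3, 3.93 and 11.4 in COS+APAP replicates 2 and 3 and 0.14 and 11.7 in control replicates 1 and 3. The level of *Nnt* thus differed within each group, the replicate numbered 3 being the higher one each time. In bulk liver RNA, fewer cells of a type and less RNA per cell cannot be told apart.

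Of the 9852 genes, 1134 rose (11.5%) and 1130 fell (11.5%) in COS+APAP against APAP, 23.0% in all. At least 2-fold differences were seen for 501 of the risen (5.09%) and 599 of the fallen genes (6.08%). The FPKM values of the groups did not overlap for 6771 genes (68.7%), among them all 2264 called genes. The median log2 fold change over all genes was 0.00. The number of calls rested on both libraries of each group. It was 286 higher and 338 lower without COS+APAP replicate 2, 349 and 442 without COS+APAP replicate 3, 308 and 330 without APAP replicate 1, and 610 and 656 without APAP replicate 3, and each of the 2264 genes kept its direction in all 4 of these fits. As the groups of these 2264 genes did not overlap in FPKM, leaving out 1 library could hardly turn a direction. The kept directions were thus largely fixed beforehand and are no support for the calls. In the main model, 999 genes were higher (10.1%) and 1012 lower (10.3%) in COS+APAP than in control, and 2268 were higher (23.0%) and 2209 lower (22.4%) in APAP than in control. These comparisons share libraries with the main one, and their values are given side by side only. Gene lists are described by their counts and medians, with a left-out library named where it moved a count of at least 4 members by over 1.5-fold. Of the 131 called genes named here, 68 kept the call without any 1 of the 4 libraries, and for the others the library is named at the end of the paragraph.

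**Figure D1:**
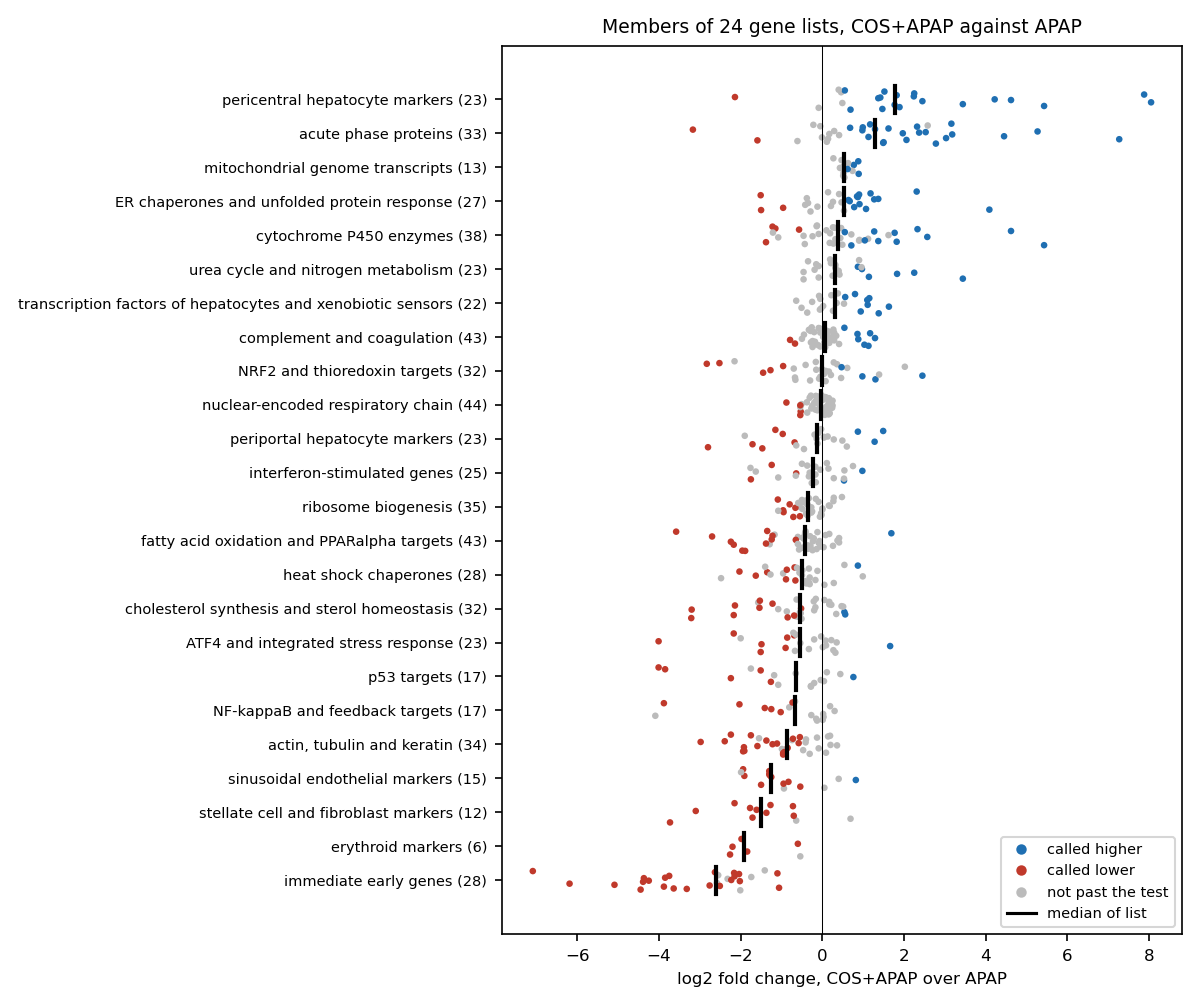
Log2 fold change of COS+APAP over APAP (x axis) for the tested members of gene lists (y axis, number of members in parentheses), with a point per gene, coloured by the edgeR call, and a black bar at the list median. The *Septin2* entry, described separately, is left out of the actin list, and the lists run from a median of -2.60 for immediate early genes to 1.77 for pericentral hepatocyte markers.

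The lowest median among the lists in the overview plot was that of the immediate early genes, regulators that are switched on within minutes of a stimulus. Of 28 tested members 22 fell (78.6%, beside 11.5% of all genes) and 0 rose, with a median log2 fold change of -2.60 beside 0.00 over all genes. All 28 had a lower value in both COS+APAP libraries than in either APAP library, beside 36.4% of all genes. A further 4 members of the list were below the filter. Of the 28 tested, 8 had a mean under 1 FPKM in 1 group and passed the filter through the other alone. *Fos*, a subunit of the AP-1 transcription factor (chromosome 12, 85473890 to 85477273, as the deposited table places it), was at 58.7 and 73.8 FPKM in the APAP libraries, 0.47 and 0.47 in the COS+APAP libraries and 2.24 and 1.86 in the controls. Both COS+APAP libraries were thus below all others, and *Fos* fell by 7.09 on the log2 scale against APAP (SE 0.20, adjusted p = 0.000875). It was also called lower than control (log2 fold change -2.00). *Jun*, the partner of *Fos* in AP-1, was at 340.2 and 382 FPKM in APAP, 5.45 and 15.2 in COS+APAP and 14.7 and 9.36 in control, and its log2 fold change against APAP was -5.09 (SE 0.58, adjusted p = 0.00758). The COS+APAP values of *Jun* lay on both sides of the control values and far below APAP. *Egr1*, a zinc finger transcription factor, was at 285 and 232, 0.90 and 6.01 and 3.72 and 1.59 FPKM in the same order of groups, and fell by 6.19 (SE 1.07, adjusted p = 0.0173). *Ier2* went from 243 and 293 FPKM in APAP to 7.11 and 17.8 in COS+APAP (log2 fold change -4.39) beside 13.6 and 13.2 in control. *Ier3*, an apoptosis regulator, was at 10.5 and 3.80 in APAP against 0.30 and 0.33 in COS+APAP (log2 fold change -4.45), and the antiproliferative *Btg2*, also a p53 target, was at 215 and 160.4 and 7.43 and 18.0 (log2 fold change -3.85). The groups did not overlap for any of these 3 genes. *Egr1* did not pass without APAP replicate 1, and *Ier3* without COS+APAP replicate 2 or 3.

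Several phosphatases that switch off MAP kinases were part of this pattern, though not every such gene in the lists passed the test. *Dusp4* was at 11.6 and 9.62 FPKM in APAP against 0.47 and 0.62 in COS+APAP, where controls were at 0.15 and 0.12, and fell by 4.25 (SE 0.25, adjusted p = 0.00339). *Dusp8* and *Dusp16*, which act on JNK and p38, had log2 fold changes of -4.01 and -2.09. *Dusp5*, which acts on ERK, was at 53.03 and 35.1 in APAP against 0.76 and 6.12 in COS+APAP and was called as well (adjusted p = 0.045), although its COS+APAP values differed 8.05-fold from each other. In the list of the JNK and p38 pathway itself, 3 genes rose and 5 fell of 19 (15.8% and 26.3%, beside 11.5% of all genes each). Of the 19, 4 had a mean under 1 FPKM in 1 group. *Map2k6*, a kinase that activates p38, rose from 0.12 and 0.29 FPKM to 1.62 and 2.33 beside 1.93 and 1.78 in control (log2 fold change 3.28), and the upstream kinase *Map3k8* fell by 1.72. The 5 falls were 2 without COS+APAP replicate 2 and 1 without APAP replicate 1. *Dusp8* did not pass without APAP replicate 1, *Dusp5* without APAP replicate 1 or 3, and *Map3k8* without COS+APAP replicate 2 or 3 or APAP replicate 1.

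Both COS+APAP libraries were low in immediate early RNA, yet not equally so. These genes took 0.0405% of the counts in COS+APAP replicate 2 and 0.104% in replicate 3, beside 0.698% and 0.65% in APAP and 0.0687% and 0.0576% in control. Of the 27 immediate early genes above 0 in both COS+APAP libraries, 14 were at least 2-fold higher in replicate 3 and 0 in replicate 2, whereas of all genes above 0 in both 3.04% were at least 2-fold higher in replicate 3. The median log2 difference, replicate 3 over replicate 2, was 1.11 for immediate early genes, 0.35 for heat shock chaperones and -0.01 for all genes. Between the APAP libraries, 3 of 28 immediate early genes were 2-fold apart. With COS+APAP replicate 2 alone, the median log2 fold change of the list against APAP was -4.10, with replicate 3 alone it was -2.22, and 25 and 20 of the members were then called lower.

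**Figure D2:**
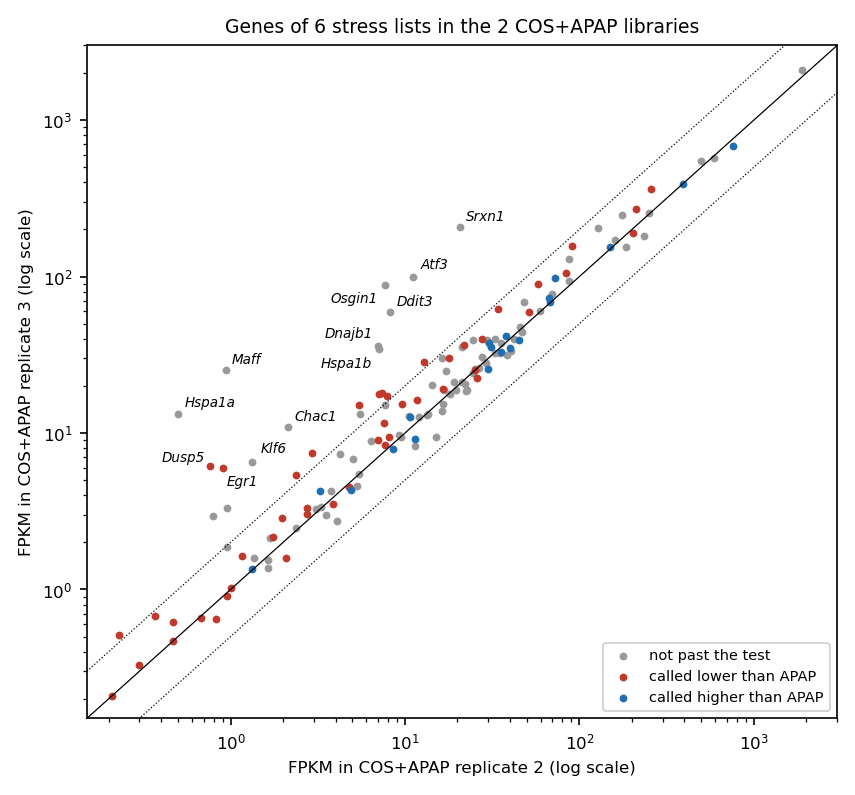
FPKM of the tested genes of the immediate early, integrated stress, p53, NRF2, heat shock and ER chaperone lists in COS+APAP replicate 2 (x axis) and replicate 3 (y axis), both on log scales. The solid line marks equal values, the dotted lines a 2-fold difference and the colours the edgeR call against APAP, and the named genes near the top, from *Maff* to *Chac1*, lie above the upper dotted line.

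Among the genes of 6 stress lists, the widest gaps between the 2 pretreated libraries were those of transcription factors, antioxidant genes and HSP70 chaperones. *Atf3*, a stress transcription factor, was at 11.05 FPKM in COS+APAP replicate 2 and 99.6 in replicate 3, beside 246 and 213 in APAP and 0.88 and 1.04 in control. Replicate 3 thus lay between replicate 2 and the APAP libraries, and the difference between groups did not pass the test (log2 fold change -2.01, SE 0.92, adjusted p = 0.171). *Ddit3*, which encodes the pro-death factor CHOP, was at 8.20 and 59.5 in COS+APAP replicates 2 and 3 and 133 and 146 in APAP (adjusted p = 0.145). *Maff*, a small Maf partner of NRF2, was at 0.94 and 25.2 beside 92.3 and 67.5 in APAP (adjusted p = 0.208). In each of these 3 genes COS+APAP replicate 2 was the lowest of the 4 treated libraries and replicate 3 the next. *Osgin1*, an oxidative stress response gene, was at 7.69 and 88.9 in COS+APAP and 324 and 112 in APAP. *Srxn1*, which encodes sulfiredoxin, was at 20.7 and 206 in COS+APAP and also differed between APAP replicates 1 and 3, at 72.0 and 301. Neither *Osgin1* nor *Srxn1* passed the test (adjusted p = 0.216 and 0.694). *Chac1*, a glutathione-degrading target of ATF4, was at 2.14 and 10.9 in COS+APAP beside 10.3 and 11.02 in APAP, so that replicate 3 lay within the range of the APAP libraries (adjusted p = 0.519).

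Heat shock proteins hold the same contrast between libraries. *Hspa1a*, an inducible HSP70 gene that can share reads with its near copy *Hspa1b*, was at 0.50 FPKM in COS+APAP replicate 2, 13.3 in replicate 3, 14.4 and 23.2 in APAP and 0.73 and 0.12 in control (adjusted p = 0.505 against APAP). *Hspa1b* was at 7.12 and 34.3 in COS+APAP and 44.4 and 58.9 in APAP (adjusted p = 0.262), and the HSP40 gene *Dnajb1* at 7.05 and 36.0 and 111 and 136 (adjusted p = 0.0609). In all 3 the higher COS+APAP library was replicate 3, and both were below APAP. Of 28 heat shock genes 7 fell and 1 rose (25.0% and 3.57%, beside 11.5% of all genes each, median -0.49). The 7 falls were 2 without COS+APAP replicate 2, 1 without APAP replicate 1 and 2 without APAP replicate 3. Among them, *Hsp90aa1*, the inducible HSP90, was at 119 and 124 FPKM in APAP, 21.9 and 36.4 in COS+APAP and 67.1 and 72.8 in control, so that both COS+APAP libraries were below all others (log2 fold change -2.03 against APAP, adjusted p = 0.0093). *Hsp90ab1* fell by 0.89, *Hsph1* by 1.63 and the co-chaperone *Bag3* by 1.35. The 250 bases before the start of *Hspa1a* (RefSeq, GRCm38.p6, chr17:34972157-34972406, minus strand) are shown because this gene had one of the widest gaps between the pretreated libraries. Capitals mark a heat shock element, GAANNTTC on either strand, which begins 104 bases before the gene start.
Hspa1a: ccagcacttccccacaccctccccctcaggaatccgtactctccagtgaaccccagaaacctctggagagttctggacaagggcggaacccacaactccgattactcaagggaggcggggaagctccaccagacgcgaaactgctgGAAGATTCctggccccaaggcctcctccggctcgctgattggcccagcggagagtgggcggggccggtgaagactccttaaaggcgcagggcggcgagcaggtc
This element was in the same window of 8 of 22 heat shock genes with a RefSeq promoter (36.4%) and of 7.73% of all 27025 genes, and in 1 of the 4 of them that fell. A match is a stretch of letters and no evidence of binding. *Hsp90ab1*, *Hsph1* and *Bag3* did not pass without COS+APAP replicate 2 or APAP replicate 1 or 3.

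**Figure D3:**
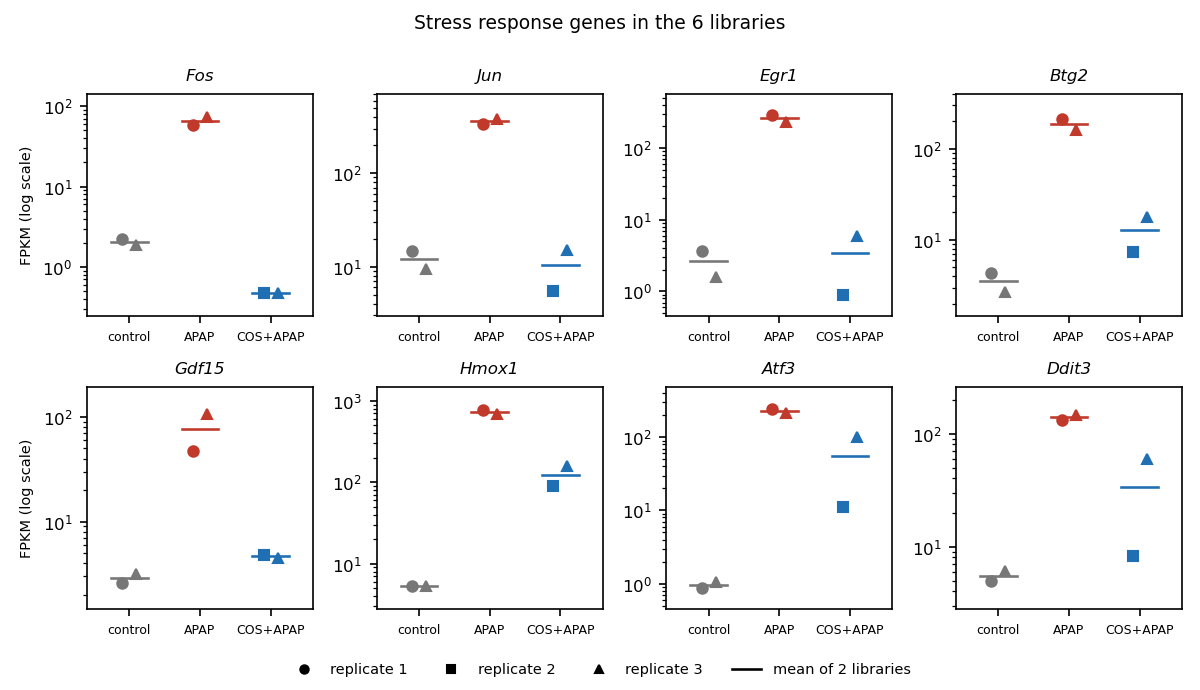
FPKM on log scales (y axis) of 8 stress response genes in control, APAP and COS+APAP libraries (x axis), with a point per library, shaped by replicate number, and a line at the mean of 2. *Fos*, *Gdf15* and *Hmox1* are low in both COS+APAP libraries relative to APAP, whereas *Atf3* and *Ddit3* differ between COS+APAP replicates 2 and 3.

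The antioxidant genes did not move as 1 group. *Hmox1*, the gene of heme oxygenase 1, was at 772 and 689 FPKM in APAP, 90.6 and 158 in COS+APAP and 5.28 and 5.35 in control. COS+APAP values thus lay between control and APAP, and the log2 fold change was -2.52 against APAP (SE 0.29, adjusted p = 0.00758) and 4.67 against control. *Gclc*, the catalytic subunit of glutamate-cysteine ligase, which starts glutathione synthesis, was at 412 and 329 in APAP, 151 and 225 in COS+APAP and 55.6 and 58.4 in control, and fell by 0.95 (SE 0.24, adjusted p = 0.0409). *Nqo1*, a quinone reductase, was at 12.0 and 12.6 FPKM in APAP against 12.0 and 12.6 in COS+APAP, beside 5.64 and 6.71 in control. The difference of *Nqo1* between the treated groups was 0.04 (SE 0.13, adjusted p = 0.861), and it was called higher than control in both. *Akr1b8*, an aldo-keto reductase, fell by 2.83 and *Gsta1*, a glutathione S-transferase that can share reads with its close copies, by 1.45. *Gstm3* rose by 2.45 and the biliverdin reductase *Blvrb* by 1.30. In the whole list of NRF2 and thioredoxin targets, 4 rose and 5 fell of 32, a median of 0.00. These shares, 12.5% and 15.6%, were near the 11.5% of all genes called each way. The 4 rises were 2 without any 1 of the 4 libraries, and the 5 falls were 2 without COS+APAP replicate 2 and 3 without APAP replicate 1. Of 15 tested genes of glutathione synthesis and recycling 0 rose and 3 fell (20.0%, beside 11.5% of all genes). Those that fell were *Gclc*, the glutathione reductase *Gsr* (-0.68) and the glutathione synthetase *Gss* (-0.55). The metallothioneins *Mt1* and *Mt2*, cysteine-rich metal binders, were high in all 4 libraries. *Mt1* was at 1659 and 1745 FPKM in APAP against 1329 and 1682 in COS+APAP, and *Mt2* at 2706 and 2911 and 1361 and 2219, where controls were at 12.3 and 13.5 and 5.68 and 8.99. Neither differed between the treated groups beyond the spread (adjusted p = 0.546 and 0.198). *Gclc* did not pass without COS+APAP replicate 2 or APAP replicate 1 or 3, *Gsta1* and *Gss* without any 1 of the 4 libraries, and *Gsr* without COS+APAP replicate 2 or 3 or APAP replicate 1.

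The integrated stress response, in which the factor ATF4 switches on amino acid and stress genes, was lower in part. Of 23 tested genes 7 fell and 1 rose (median -0.54), and the 7 falls were 2 without COS+APAP replicate 2, 4 without replicate 3 and 3 without APAP replicate 1. The 7 falls were 30.4% and the 1 rise 4.35% of the list, beside 11.5% of all genes each. *Gdf15*, a stress cytokine and also a p53 target, was at 47.2 and 107 FPKM in APAP, 4.80 and 4.51 in COS+APAP and 2.61 and 3.14 in control. The 2 pretreated libraries were close to each other and far below APAP (log2 fold change -4.01, SE 0.40, adjusted p = 0.00645). *Fgf21*, a hormone released by stressed and fasting liver, was at 50.3 and 23.0, 7.66 and 8.34 and 0.65 and 0.93 in the same order and fell by 2.17. *Psat1*, an enzyme of serine synthesis, fell by 1.51. *Trib3* was at 8.34 and 11.6 in APAP against 5.03 and 6.82 in COS+APAP (adjusted p = 0.114). *Ddit4*, an mTORC1 inhibitor, was the 1 member that rose, from 6.47 and 11.6 to 29.8 and 25.7 (log2 fold change 1.66, adjusted p = 0.0282). Of 17 p53 targets 5 fell and 1 rose (29.4% and 5.88%, beside 11.5% of all genes each). *Cdkn1a*, which encodes the cell cycle inhibitor p21, was at 73.4 and 65.0 FPKM in APAP against 24.4 and 39.5 in COS+APAP beside 0.06 and 0.37 in control (adjusted p = 0.253 against APAP). The p53 falls were 3 without COS+APAP replicate 2 or APAP replicate 3, and 2 without COS+APAP replicate 3 or APAP replicate 1. Among cell death genes *Casp9*, the initiator caspase of the mitochondrial pathway, fell from 3.45 and 2.16 FPKM to 0.34 and 0.19 (control 0.31 and 0.21), a log2 fold change of -3.35. The TWEAK receptor *Tnfrsf12a* fell from 72.7 and 43.3 to 12.1 and 15.1 (control 1.60 and 2.96), and the survival factors *Mcl1* and *Bcl2l1* fell by 1.53 and 1.62. *Fgf21* and *Psat1* did not pass without COS+APAP replicate 2 or 3, *Ddit4*, *Tnfrsf12a* and *Bcl2l1* without COS+APAP replicate 2 or 3 or APAP replicate 1, and *Mcl1* without COS+APAP replicate 2 or APAP replicate 1.

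Chaperones of the endoplasmic reticulum (ER) rose more often than they fell. Of 27 tested genes of ER chaperones and the unfolded protein response 13 rose (48.1%) and 3 fell (11.1%), with a median of 0.53, and the 13 rises were 5 without COS+APAP replicate 2 and 6 without each of the others. *Sdf2l1*, an ER co-chaperone, was at 8.58 and 7.80 FPKM in APAP, 37.8 and 41.7 in COS+APAP and 70.5 and 61.1 in control, with all COS+APAP values between the other groups, and rose by 2.31 (SE 0.15, adjusted p = 0.00339). *Derl3*, a factor of ER-associated degradation, was at 0.07 and 0.36 in APAP, 3.27 and 4.28 in COS+APAP and 10.1 and 4.73 in control (adjusted p = 0.0205). The 3 falls were sensors and effectors of the unfolded protein response, *Ern1* (-1.51), *Xbp1* (-1.50) and *Eif2ak3* (-0.96), the last named after its value was seen. *Xbp1*, a factor that is known to drive ER chaperone genes, was at 45.4 and 58.2 FPKM in APAP, 16.6 and 19.1 in COS+APAP and 16.4 and 17.6 in control. *Hspa5*, the abundant chaperone BiP, did not pass the test (328 and 235 FPKM in APAP, 175 and 248 in COS+APAP, adjusted p = 0.491). *Derl3* did not pass without COS+APAP replicate 2 or 3 or APAP replicate 1, and *Eif2ak3* without COS+APAP replicate 2 or APAP replicate 1.

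The acute phase proteins, which hepatocytes secrete in inflammation, took a larger share of the counts in COS+APAP than in APAP. Of 33 tested members 21 rose (63.6%) and 2 fell (6.06%), with a median log2 fold change of 1.29. The falls were the regulator *Socs3*, described below, and *Serpina3g* (-3.17), an intracellular protease inhibitor named after its value was seen. The 21 rises were 12 without APAP replicate 1 and 15 to 20 without any other library. In the fit against control, 27 were higher in COS+APAP and 20 in APAP, beside 10.1% and 23.0% of all genes. Together these genes took 10.1% and 12.6% of the counts in the COS+APAP libraries, 5.75% and 5.94% in APAP and 3.63% and 3.15% in control. The serum amyloid A gene *Saa2* (chromosome 7, 46751790 to 46754313, as the deposited table places it) was at 6.98 and 14.6 FPKM in APAP, 851 and 2371 in COS+APAP and 3.71 and 3.69 in control. Both COS+APAP libraries were far above all others, replicate 3 being the higher, and *Saa2* rose by 7.27 on the log2 scale (SE 0.71, adjusted p = 0.00634). *Saa1*, a near copy that can share reads with *Saa2*, was at 24.0 and 71.5, 1095 and 2468 and 11.5 and 7.32 FPKM in the same order and rose by 5.27 (SE 0.73, adjusted p = 0.0112). *Saa4*, the constitutive serum amyloid A, rose by 3.18 and *Saa3*, the form of macrophages and other cells, by 2.32. *Orm2*, an orosomucoid, was at 20.0 and 25.8 in APAP, 346 and 632 in COS+APAP and 32.4 and 31.0 in control, the APAP values being below control, and rose by 4.45 (SE 0.34, adjusted p = 0.00483). *Orm1* was at 935 and 964, 2429.8 and 3279 and 758 and 688 and rose by 1.62. *Socs3* did not pass without COS+APAP replicate 2 or APAP replicate 1 or 3, and *Saa3* without APAP replicate 1 or 3.

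Several of these genes were near control levels in APAP and high in COS+APAP alone. *Hp*, the gene of the hemoglobin binder haptoglobin, was at 2395 and 2744 FPKM in APAP and 2489.6 and 2254 in control, and at 9314 and 11664 in COS+APAP (log2 fold change 2.06, SE 0.20, adjusted p = 0.00597). *Hamp*, which encodes the iron hormone hepcidin, was at 337 and 407 in APAP, 1838 and 2359 in COS+APAP and 283 and 260.3 in control (log2 fold change 2.53, adjusted p = 0.00429). For *Hp* the APAP value did not differ from control by the test (0.20), and for *Hamp* it was higher by 0.54. *Lcn2*, which encodes a siderophore binder, was at 26.9 and 72.8 in APAP, 378 and 412 in COS+APAP and 3.16 and 3.34 in control, stepwise higher in the 3 groups (log2 fold change 3.03 against APAP, adjusted p = 0.0127). The 3 fibrinogen chains rose together, *Fga* from 1036 and 1233 to 2545 and 2888 FPKM, *Fgb* from 972 and 1179 to 2193 and 2407 and *Fgg* from 1308 and 1416 to 2793 and 3184, with log2 fold changes of 1.29, 1.13 and 1.17. *Fgl1*, a hepatokine of the fibrinogen family that stood in another list, was at 63.1 and 81.6 in APAP, 372 and 415 in COS+APAP and 59.4 and 60.0 in control (log2 fold change 2.48, adjusted p = 0.00339). *Itih4*, an inter-alpha-trypsin inhibitor chain, rose by 1.49. Members that did not pass included *Serpina3k* (-0.01, adjusted p = 0.988) and *Mt2*, described above. *Alb*, a negative acute phase gene, was at 39526 and 35829.9 FPKM in APAP against 27518 and 26619 in COS+APAP (adjusted p = 0.21), and the negative acute phase gene *Ttr* at 3144 and 2686 and 3741 and 3243 (adjusted p = 0.251). The acute phase genes were also higher in COS+APAP replicate 3 than in replicate 2, in 28 of 33 cases, with a median log2 difference of 0.35 and 4 at least 2-fold. Of all genes above 0 in both, 4749 of 9829 were higher in replicate 3. The APAP libraries differed likewise, with 26 of 33 acute phase genes higher in replicate 3 than in replicate 1. Their median log2 difference was 0.12 and 4 were at least 2-fold apart, beside 5653 of 9831 genes higher in APAP replicate 3. *Fga* and *Fgb* did not pass without COS+APAP replicate 3 or APAP replicate 1, and *Fgg* without COS+APAP replicate 3 or APAP replicate 1 or 3.

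**Figure D4:**
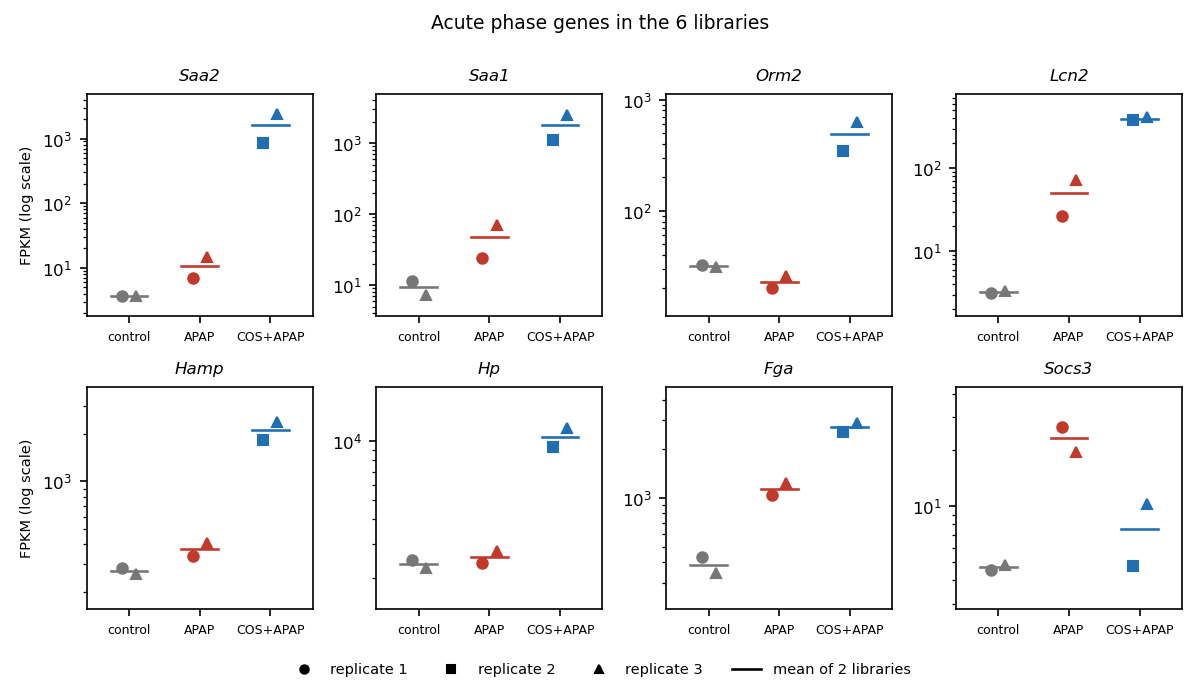
FPKM on log scales (y axis) of 8 acute phase genes in control, APAP and COS+APAP libraries (x axis), with a point per library, shaped by replicate number, and a line at the mean of 2. For the first 7 genes both COS+APAP libraries lie above all 4 others, and *Socs3* has its highest values in APAP.

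Promoters of 5 members that rose are shown because the group moved together and RefSeq (GRCm38.p6) holds their starts. Each line is the 250 bases before the gene start, 5′ to 3′. In *Saa1* (chr7:46742981-46743230, minus strand), *Saa2* (chr7:46751583-46751832, plus strand) and *Orm2* (chr4:63362199-63362448, plus strand), capitals mark a C/EBP half-palindrome, TTGCNNAA on either strand. In *Fga* (chr3:83025903-83026152, plus strand) and *Fgb* (chr3:83049864-83050113, minus strand), they mark a STAT site, TTCNNNGAA.
Saa1: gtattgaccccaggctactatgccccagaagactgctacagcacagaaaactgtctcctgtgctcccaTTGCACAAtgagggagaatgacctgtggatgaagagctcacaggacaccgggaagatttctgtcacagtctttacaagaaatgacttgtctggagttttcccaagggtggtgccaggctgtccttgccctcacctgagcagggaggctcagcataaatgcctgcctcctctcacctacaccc
Saa2: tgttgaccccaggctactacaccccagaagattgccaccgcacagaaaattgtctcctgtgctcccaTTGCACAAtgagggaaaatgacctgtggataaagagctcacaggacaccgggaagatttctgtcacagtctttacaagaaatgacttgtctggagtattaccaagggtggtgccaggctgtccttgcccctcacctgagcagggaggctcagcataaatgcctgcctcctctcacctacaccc
Orm2: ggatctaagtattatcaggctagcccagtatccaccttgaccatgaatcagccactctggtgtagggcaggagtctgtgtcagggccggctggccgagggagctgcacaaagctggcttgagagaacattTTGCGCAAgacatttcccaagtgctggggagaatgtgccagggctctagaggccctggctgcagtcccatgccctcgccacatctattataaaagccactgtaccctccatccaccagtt
Fga: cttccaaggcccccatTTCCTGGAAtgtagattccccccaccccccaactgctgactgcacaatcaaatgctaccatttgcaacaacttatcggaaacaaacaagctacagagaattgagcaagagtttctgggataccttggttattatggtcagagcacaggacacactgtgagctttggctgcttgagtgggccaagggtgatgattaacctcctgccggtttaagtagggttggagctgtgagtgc
Fgb: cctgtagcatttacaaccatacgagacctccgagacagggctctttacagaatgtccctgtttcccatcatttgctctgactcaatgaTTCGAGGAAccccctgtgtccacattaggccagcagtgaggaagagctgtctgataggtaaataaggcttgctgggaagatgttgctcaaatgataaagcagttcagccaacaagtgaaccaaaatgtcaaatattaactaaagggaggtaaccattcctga
The C/EBP letters begin 182, 183 and 120 bases before the starts of *Saa1*, *Saa2* and *Orm2*, and the STAT letters 234 and 162 bases before those of *Fga* and *Fgb*. Of 25 tested acute phase genes with a RefSeq promoter, 14 held the C/EBP letters (56.0%), beside 10.8% of all 27025 genes, and 11 of the 17 that rose. The STAT letters were in 8 of the 25 (32.0%, beside 8.13% of all genes), and an NF-kappaB core, GGGNNNTTCC, in 4 (16.0%, beside 5.31%). Other pairs of a list and a motif gave lower and higher shares. The AP-1 letters, TGANTCA, were in 0 of 20 immediate early promoters (7.82% of all genes), the serum response element in 2 (1.62%) and the cyclic AMP response element, TGACGTCA, in 3 (1.77%). The sterol regulatory element was in 0 of 23 sterol genes (0.0814%), the antioxidant response core, TGACNNNGC, in 7 of 28 NRF2 targets (11.5%), the TCF site, ATCAAAG, in 3 of 15 pericentral markers (3.72%) and the metal response core, TGCNCNC, in 4 of 5 metallothionein and zinc genes (47.2%). With the heat shock element, 11 pairs were searched, and these shares describe letters in a short window, with no test.

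Regulators of inflammation fell more often than they rose. *Socs3*, the feedback inhibitor of IL-6 signalling that STAT3 switches on, was at 26.7 and 19.6 FPKM in APAP, 4.78 and 10.3 in COS+APAP and 4.57 and 4.84 in control, and fell by 1.59 (SE 0.39, adjusted p = 0.038). *Stat3* was at 13.3 and 13.5 in APAP against 8.67 and 10.6 in COS+APAP (adjusted p = 0.0995), beside 5.38 and 4.48 in control. *Il1r1*, the IL-1 receptor, was at 19.2 and 19.8 in APAP, 32.0 and 19.1 in COS+APAP and 4.28 and 2.48 in control (adjusted p = 0.404 against APAP). Of 19 tested genes of IL-6, IL-1 and STAT3 signalling 2 rose (10.5%) and 6 fell (31.6%), beside 11.5% of all genes each. Of 17 NF-kappaB and feedback targets 0 rose and 6 fell (35.3%). Among 14 chemokines and cytokines 1 rose (7.14%) and 5 fell (35.7%), and 5 of the 14 had a mean under 1 FPKM in 1 group. The 6 falls of the first list and the 6 of the second were fewer when 1 library was left out. *Nfkbiz*, a nuclear IkB protein, was at 9.83 and 11.1 in APAP against 2.02 and 2.99 in COS+APAP (log2 fold change -2.03), and *Nfkbia*, the gene of IkB-alpha, at 29.2 and 31.1 and 13.3 and 11.5 (-1.25). The neutrophil attractant *Cxcl1* fell from 48.5 and 41.2 FPKM to 7.24 and 18.8 beside 1.42 and 1.97 in control (log2 fold change -1.75, adjusted p = 0.0476), and the interferon-induced chemokine *Cxcl10* from 21.9 and 12.2 to 0.25 and 1.99 beside 1.47 and 3.05 in control (log2 fold change -3.88, adjusted p = 0.0443). Without 1 library, the 5 falls among 14 tested chemokines and cytokines were 0 (APAP replicate 1) to 3 (COS+APAP replicate 3), with 1 without COS+APAP replicate 2 or APAP replicate 3. *Icam1*, an adhesion molecule, did not pass (2.63 and 3.16 FPKM in APAP, 2.99 and 3.95 in COS+APAP, adjusted p = 0.311). *Socs3*, *Cxcl1* and *Cxcl10* did not pass without COS+APAP replicate 2 or APAP replicate 1 or 3, and *Nfkbia* without COS+APAP replicate 3 or APAP replicate 1.

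Interferon-stimulated genes were mostly below control in both treated groups, and antigen presentation genes of class II fell in COS+APAP against APAP. *Isg15*, a ubiquitin-like interferon product, was at 12.7 and 10.6 FPKM in APAP, 10.5 and 9.95 in COS+APAP and 87.0 and 129 in control, and did not differ between treated groups by the test (adjusted p = 0.629). *Ifit1* was at 2.62 and 1.52, 1.17 and 1.69 and 9.29 and 15.2 in the same order (adjusted p = 0.382). Of 25 tested members 2 rose (8.0%) and 3 fell (12.0%) against APAP, beside 11.5% of all genes each. Against control 20 were lower in COS+APAP and 18 in APAP, beside 10.3% and 22.4% of all genes. *Iigp1*, an immunity-related GTPase, was at 46.2 and 46.1 in APAP, 8.96 and 5.39 in COS+APAP and 25.0 and 21.8 in control, with both COS+APAP values below all others (log2 fold change -2.66, adjusted p = 0.00597). *Cd74*, the chaperone of class II molecules, was at 28.3 and 25.6 FPKM in APAP, 7.48 and 7.62 in COS+APAP and 19.5 and 27.9 in control, and fell by 1.80 (SE 0.20, adjusted p = 0.00738). The class II genes *H2-Aa* and *H2-Ab1* fell by 1.52 and 1.96, while the class I gene *H2-D1* did not pass (-0.21, adjusted p = 0.237). *H2-Aa* and *H2-Ab1* did not pass without COS+APAP replicate 2 or 3.

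Markers of pericentral hepatocytes had the highest median of the lists in the overview plot. Of 23 tested members 18 rose (78.3%) and 1 fell (4.35%), with a median log2 fold change of 1.77, and the 18 rises were 11 without COS+APAP replicate 2. Their summed level was 5910 and 4997 FPKM in the COS+APAP libraries, 1740 and 2366 in APAP and 6330 and 5298 in control, so that 1 COS+APAP sum lay within and 1 below the control values, and both above APAP. *Axin2* and *Lgr5*, targets of the Wnt signal of the central vein, were below the filter. Of the 23 tested markers, 5 had a mean under 1 FPKM in 1 group and passed the filter through the other alone. *Glul*, which encodes glutamine synthetase and is confined in healthy liver to the cells next to the central vein, was at 18.0 and 27.8 FPKM in APAP, 129 and 82.9 in COS+APAP and 159 and 141 in control. It rose by 2.25 (SE 0.29, adjusted p = 0.00963). *Oat*, ornithine aminotransferase of the same cells, was at 16.0 and 22.5, 214 and 194 and 302 and 270.1 in the same order and rose by 3.44 (SE 0.19, adjusted p = 0.00339). *Slc1a2*, a glutamate transporter, was at 0 and 0.05 in APAP, 7.63 and 4.49 in COS+APAP and 7.91 and 6.74 in control, and the dicarboxylate transporter *Slc13a3* at 0 and 0.03, 4.10 and 2.46 and 3.80 and 3.09. Both rose, but as 1 APAP library is at 0 no fold is given. *Ces1d*, a carboxylesterase listed as a pericentral marker, was the 1 that fell (-2.14) and is named after its value was seen.

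The enzymes that oxidise APAP were among these markers. *Cyp2e1* was at 816 and 1189 FPKM in APAP, 2773 and 2265 in COS+APAP and 2359.6 and 1644 in control. The APAP libraries were the lowest, and *Cyp2e1* rose by 1.37 against them (SE 0.27, adjusted p = 0.0227), with 0.45 against control. *Cyp1a2* was at 51.9 and 68.5, 204 and 196 and 461 and 495 FPKM in the same order, so that COS+APAP lay between the others, and it rose by 1.77 (SE 0.15, adjusted p = 0.00576) while it remained called lower than control (-1.14). *Cyp3a11*, another enzyme with this activity, was at 183 and 351, 208 and 177 and 627 and 622 and did not pass against APAP (adjusted p = 0.328). *Cyp2a5*, a coumarin hydroxylase that can share reads with *Cyp2a4* (log2 fold change 3.58), was at 16.1 and 33.8 in APAP, 725 and 469.7 in COS+APAP and 414 and 355 in control, and rose by 4.62 (SE 0.43, adjusted p = 0.00597). *Cyp7a1*, which controls the classical route from cholesterol to bile acids, was at 0.93 and 0.53 in APAP, 22.2 and 39.6 in COS+APAP and 28.7 and 38.9 in control. It rose by 5.43 (SE 0.47, adjusted p = 0.00585), and the COS+APAP values lay on both sides of the controls. In the list of 38 tested cytochrome P450 genes 11 rose (28.9%) and 4 fell (10.5%), beside 11.5% of all genes each (median 0.38). The 11 rises were 5 to 7 without any 1 of the 4 libraries. The 4 falls were 1 without COS+APAP replicate 3 and 0 without APAP replicate 1. *Gstm2*, a glutathione S-transferase, rose from 6.78 and 6.60 FPKM to 47.1 and 38.9 beside 35.8 and 33.8 in control (2.71, adjusted p = 0.00268). *Cyp2e1* did not pass without COS+APAP replicate 2 or 3 or APAP replicate 1, and *Cyp2a4* without COS+APAP replicate 2 or 3.

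**Figure D5:**
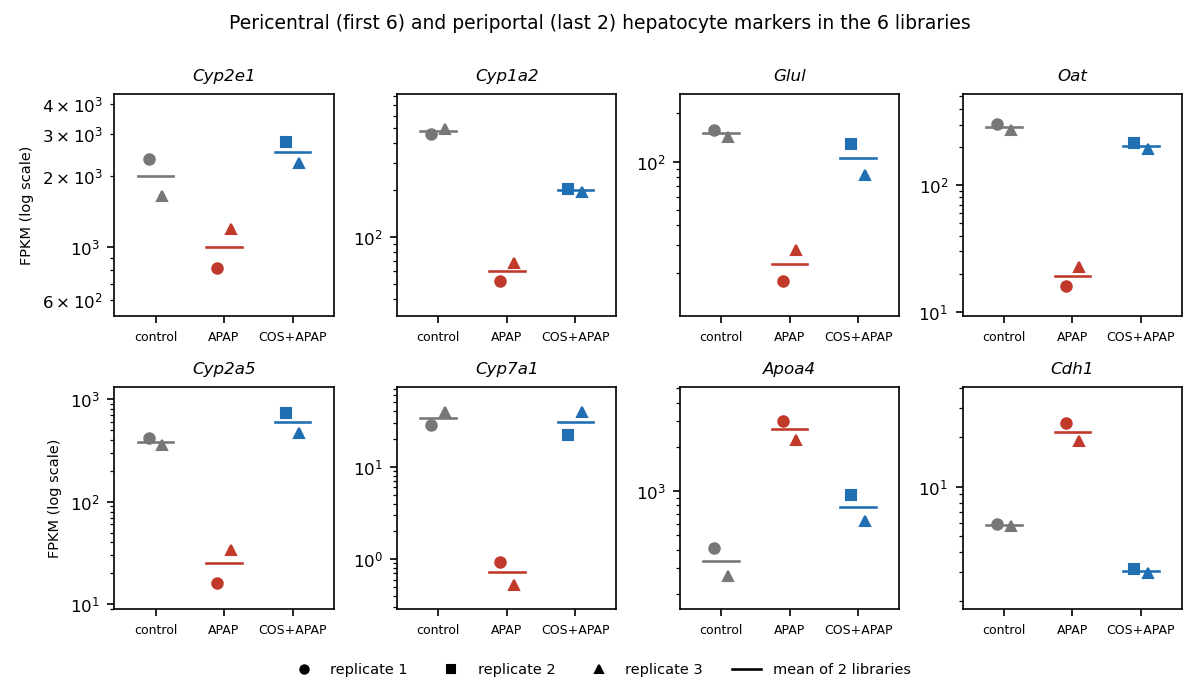
FPKM on log scales (y axis) of 6 pericentral and 2 periportal hepatocyte markers in control, APAP and COS+APAP libraries (x axis), with a point per library, shaped by replicate number, and a line at the mean of 2. The 6 pericentral markers shown are lowest in APAP, and the periportal *Apoa4* and *Cdh1* are highest there. These 2 were picked from the 6 periportal markers that fell, and do not stand for the list, in which 3 of 23 rose and 14 did not pass.

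Periportal markers did not move as 1 group. Of 23 tested members 3 rose, 6 fell and 14 did not pass (median -0.12), and the 6 falls were 3 without APAP replicate 1. *Cdh1*, the gene of E-cadherin, was at 24.4 and 19.0 FPKM in APAP, 3.13 and 2.97 in COS+APAP and 5.95 and 5.76 in control. The COS+APAP values were below both other groups, and *Cdh1* fell by 2.80 (SE 0.17, adjusted p = 0.00339). *Apoa4*, an apolipoprotein, was at 3017 and 2233, 948 and 625 and 408 and 266 and fell by 1.71, and the lipid droplet enzyme *Hsd17b13* fell by 1.47. *Sds*, serine dehydratase, rose from 147 and 149.5 to 315 and 388 (1.28, adjusted p = 0.0231). Hepatocyte transcription factors rose or did not pass, 8 (36.4%, beside 11.5% of all genes) and 14 of 22. The bile acid receptor *Nr1h4* (FXR) was at 17.0 and 20.4 in APAP, 47.1 and 31.7 in COS+APAP and 72.1 and 70.3 in control (1.11, adjusted p = 0.0192). *Ahr*, the dioxin receptor, rose by 1.38, whereas *Hnf4a* was at 121 and 176 and 122 and 121 (adjusted p = 0.357). These 8 rises were 2 without COS+APAP replicate 2, 4 without replicate 3, 1 without APAP replicate 1 and 3 without APAP replicate 3. Of the urea cycle and nitrogen list 6 rose (26.1%, beside 11.5% of all genes) and 0 fell of 23. Those that rose included *Prodh*, proline dehydrogenase (1.83), and the glutamate carrier *Slc25a22* (1.14). *Apoa4* did not pass without COS+APAP replicate 2 or 3 or APAP replicate 1, *Sds* without any 1 of the 4 libraries, *Nr1h4* without COS+APAP replicate 2 or APAP replicate 1 or 3, and *Ahr* without APAP replicate 1 or 3.

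Genes of cholesterol synthesis and sterol balance were lower in part after COS. Of 32 tested members 10 fell and 2 rose (median -0.54), and the 10 falls were 4 without COS+APAP replicate 2, 2 without replicate 3 and 5 without APAP replicate 1. The falls were 31.2% and the rises 6.25% of the list, beside 11.5% of all genes each. Against control, 21 members were lower in COS+APAP and 19 in APAP, beside 10.3% and 22.4% of all genes. *Idi1*, an isomerase of the pathway, was at 13.4 and 8.23 FPKM in APAP, 1.27 and 1.01 in COS+APAP and 26.5 and 30.3 in control, and fell by 3.21 (SE 0.29, adjusted p = 0.00597). The sterol sensor *Insig1* was at 60.7 and 25.7, 10.4 and 8.89 and 109 and 119 in the same order and fell by 2.14 (SE 0.42, adjusted p = 0.0221). Both COS+APAP values were below all others for both genes. Of the lipogenic enzymes *Fasn*, fatty acid synthase, was at 7.42 and 6.21 in APAP against 5.39 and 5.54 in COS+APAP, beside 35.1 and 44.3 in control (adjusted p = 0.248 against APAP), and the desaturase *Scd1* did not pass (-0.38, adjusted p = 0.529). *Thrsp*, a lipogenic regulator, rose from 8.52 and 6.93 to 31.8 and 22.2 beside 189 and 269.5 in control (1.83). *Insig1* did not pass without COS+APAP replicate 2 or 3.

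Targets of the fatty acid receptor PPARalpha fell in part, and lipid droplet proteins moved in both directions. Of 43 tested genes of fatty acid oxidation 11 fell and 1 rose (median -0.42), and the 11 falls were 7 without COS+APAP replicate 2, 6 without replicate 3 and 4 without APAP replicate 1. The 11 falls were 25.6% and the 1 rise 2.33% of the list, beside 11.5% of all genes each. *Ehhadh*, a peroxisomal enzyme, was at 722 and 587 FPKM in APAP, 176 and 95.4 in COS+APAP and 234 and 203 in control, and fell by 2.24 (SE 0.32, adjusted p = 0.0114). The acyl-CoA thioesterases *Acot1* and *Acot3* fell by 2.70 and 3.58, and *Pdk4*, a brake on pyruvate oxidation, by 1.96. *Cpt1a*, the entry step of mitochondrial oxidation, did not pass (51.1 and 62.9 in APAP, 46.8 and 36.3 in COS+APAP, adjusted p = 0.142). *Ppargc1a*, a coactivator of mitochondrial and fasting genes, rose from 0.65 and 0.77 to 2.64 and 1.84 beside 0.78 and 0.74 in control (1.69, adjusted p = 0.0102). Among the droplet proteins, *Plin2*, which coats droplets, was at 682 and 574 FPKM in APAP, 134 and 119 in COS+APAP and 45.6 and 43.2 in control, and fell by 2.28 (SE 0.15, adjusted p = 0.00374). *Hilpda*, a lipase inhibitor that hypoxia switches on, was at 121 and 31.6, 3.07 and 2.75 and 0.76 and 0.84 and fell by 4.69, and *Cidec* fell by 1.95. *Plin4* went the other way, at 4.08 and 5.97 in APAP, 28.9 and 27.1 in COS+APAP and 1.00 and 1.37 in control, with both COS+APAP libraries above all others (2.51, adjusted p = 0.00597). *Ehhadh* and *Ppargc1a* did not pass without APAP replicate 1, *Acot1* and *Pdk4* without COS+APAP replicate 2 or 3 or APAP replicate 1, *Hilpda* without COS+APAP replicate 2 or 3, and *Cidec* without APAP replicate 1 or 3.

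Many genes of the cytoskeleton and of endothelial and stellate cells were lower in COS+APAP. Of 34 tested genes of actin, tubulin and keratin 19 fell (55.9%, beside 11.5% of all genes, median -0.87), and the 1 rise was an entry of *Septin2* described below. The 19 falls were 7 without COS+APAP replicate 2 or APAP replicate 1 and 10 without COS+APAP replicate 3. *Actg1*, a cytoplasmic actin, was at 552 and 397 FPKM in APAP, 52.8 and 65.3 in COS+APAP and 46.7 and 45.7 in control, and fell by 2.98 (SE 0.23, adjusted p = 0.00479). The non-muscle myosin *Myh9* fell by 2.39 and the tropomyosin *Tpm4* by 2.24. Of 15 tested sinusoidal endothelial markers 10 fell and 1 rose (66.7% and 6.67%, beside 11.5% of all genes each). The summed level of all 21 markers was 46 and 40 FPKM in COS+APAP, 77.4 and 75.5 in APAP and 67.4 and 76.8 in control. Of 12 tested stellate cell and fibroblast markers 10 fell (83.3%, beside 11.5% of all genes), and the 22 markers summed to 67.1 and 41.6, 130 and 114, and 97.5 and 90 in the same order. Of these 12, 6 had a mean under 1 FPKM in 1 group, as had 2 of the 15 endothelial markers. They passed the filter through the other group alone, which favours large differences. Another 10 stellate and 6 endothelial markers were below the filter. The endothelial falls were 2 to 6 without any 1 library, 2 being the count without APAP replicate 1. The stellate falls were 4 without COS+APAP replicate 3, 5 without APAP replicate 1 and 6 without APAP replicate 3. *Pecam1* and *Cdh5*, adhesion molecules of endothelium, fell by 1.50 and 1.91. The contractile genes *Acta2* and *Tagln* fell by 3.73 and 3.10, and the pericyte gene *Rgs5* by 2.15, while the scavenger receptor *Stab2* did not pass (2.82 and 3.32 in APAP, 3.51 and 2.69 in COS+APAP, adjusted p = 0.859). *Acta2* and *Tagln* did not pass without COS+APAP replicate 2 or 3.

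Markers of red cells and of neutrophils summed higher in the APAP libraries than in the others. Sums of monocyte markers were close in the treated groups, and those of lymphocyte markers were lowest in APAP. Of these markers, 7 of 14 and 17 of 20 were below the filter, so the sums say little about these cells. The globins, which can share reads, are transcripts of red cell precursors and reticulocytes. *Hbb-bs* was at 532 and 378 FPKM in APAP, 87.6 and 107 in COS+APAP and 72.3 and 60.9 in control (-2.20, adjusted p = 0.00686). Of 6 tested erythroid markers 5 fell (83.3%, beside 11.5% of all genes), and the summed level was 312 and 319 in COS+APAP, 1497 and 1080 in APAP, and 300.0 and 272 in control. Neutrophil markers summed to 4.04 and 2.66 in COS+APAP, 35 and 11.2 in APAP and 4.4 and 7.07 in control, with the defining genes *Ly6g* and *Camp* at 0 in the 4 libraries. Only 3 of these 14 markers were tested, 2 of them with a mean under 1 FPKM in 1 group, and 1 fell. *S100a9*, a calgranulin of neutrophils and monocytes, fell from 18.1 and 5.60 to 1.99 and 1.47 (adjusted p = 0.0296). Of 7 tested monocyte and macrophage markers 2 fell, *Cd14* by 3.38 and *Thbs1* by 6.46, both also made by other liver cells, and 5 did not pass. The 14 markers of that list summed to 271 and 268 in COS+APAP, 285 and 277 in APAP, and 234 and 226 in control. That sum rests mainly on the 7 tested members, which include a coagulation factor gene. The monocyte genes *Ly6c2* and *Ccr2* were at no more than 0.2 and 0.15 FPKM in the 4 libraries. Lymphocyte markers, 20 in number, summed to 24.8 and 33.9 in COS+APAP, 20.9 and 16.9 in APAP, and 26.6 and 22.4 in control. Of them 3 were tested, and 0 rose and 0 fell. The 17 others were each at no more than 1.21 FPKM in the 4 libraries. Kupffer cell markers summed to 213 and 218 in COS+APAP, 262 and 303 in APAP, and 217 and 195 in control, and *C1qa* and *C1qb*, complement genes of macrophages, did not pass (adjusted p = 0.288 and 0.258). Of 18 tested Kupffer cell markers 2 rose and 3 fell (median -0.27), and the 2 rises were 0 without any 1 of the 4 libraries. The Kupffer cell shares, 11.1% higher and 16.7% lower, were near the 11.5% of all genes called each way. *Marco*, a scavenger receptor, rose from 8.17 and 9.46 to 11.7 and 14.98 (0.63, adjusted p = 0.0449), while *Adgre1*, the gene of the macrophage antigen F4/80, fell from 1.47 and 1.78 to 0.40 and 0.63 (-1.63, adjusted p = 0.0418). The part of these cells in the falls of immediate early, actin and inflammatory genes was not tested. *S100a9* did not pass without COS+APAP replicate 2 or 3 or APAP replicate 1, *Cd14* without COS+APAP replicate 2 or 3, and *Marco* and *Adgre1* without any 1 of the 4 libraries.

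Mitochondrially encoded transcripts made up 11.8% and 10.8% of the counts in COS+APAP, 8.28% and 7.37% in APAP and 12.8% and 16.1% in control. All 13 were higher in both COS+APAP libraries than in either APAP library, beside 32.4% of all tested genes, with a median log2 fold change of 0.54, and 4 were called, a count that was 0 without any 1 of the 4 libraries. The 4 calls were 30.8% of these transcripts, beside 11.5% of all genes called higher. *mt-Nd5*, a subunit of complex I, was at 2507 and 2313 FPKM in APAP, 4582 and 4084 in COS+APAP and 3112 and 3853 in control (0.88, adjusted p = 0.0239), whereas *mt-Co1* did not pass (0.52, adjusted p = 0.139). Of 44 nuclear-encoded subunits 4 fell, *Atp5b* most (-0.88), and that count was 0 without any library other than APAP replicate 3 and 1 without that one. The 4 falls were 9.09% of the nuclear-encoded list, below the 11.5% of all tested genes, and the list median was -0.04. Of 35 genes of ribosome biogenesis 7 fell (20.0%) and 0 rose (median -0.36). The nucleolar helicase *Ddx21* was at 14.6 and 14.9 in APAP, 6.82 and 8.14 in COS+APAP and 4.40 and 4.38 in control (-0.95, adjusted p = 0.0107). These 7 falls were 0 to 2 without 1 library, 0 being the count without APAP replicate 1. Of 19 clock genes 3 rose (15.8%) and 6 fell (31.6%). *Nr1d1*, the clock repressor REV-ERBalpha, was at 62.1 and 57.0 FPKM in APAP, 10.9 and 10.4 in COS+APAP and 18.4 and 17.5 in control (-2.45, SE 0.12, adjusted p = 0.00197), and *Usp2*, a rhythmic deubiquitinase gene, rose from 0.20 and 0.58 to 3.68 and 3.28 beside 5.82 and 5.67 in control (3.18). The 6 clock falls were 2 without COS+APAP replicate 2 and 3 without replicate 3. The hour of collection is not given for the groups, and its part in any difference was not tested. *mt-Nd5* did not pass without any 1 of the 4 libraries, *Atp5b* without COS+APAP replicate 2 or 3 or APAP replicate 1, *Ddx21* without APAP replicate 1, and *Usp2* without COS+APAP replicate 2.

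Of 20 tested genes of the growth hormone, STAT5 and IGF axis 5 fell (25.0%, beside 11.5% of all genes), 0 rose and 15 did not pass (median -0.81). *Cish* and *Socs2*, feedback inhibitors that STAT5 switches on, were at 3.21 and 1.34 and 2.11 and 1.20 FPKM in APAP against 0.61 and 0.33 and 0.39 and 0.38 in COS+APAP, where controls were at 7.26 and 9.68 and 1.20 and 0.96. Both fell, by 2.26 (adjusted p = 0.0318) and 2.06 (adjusted p = 0.0137). *Igfbp2*, a binder of insulin-like growth factors, fell by 1.53, and *Igfbp1* did not pass (803 and 646 in APAP, 131 and 158 in COS+APAP, adjusted p = 0.118). The 5 falls were 0 without COS+APAP replicate 3 and 2 without COS+APAP replicate 2 or APAP replicate 1. Single members of the major urinary proteins, carriers of pheromones that share reads within the family, rose steeply, *Mup18* from 21.6 and 28.6 to 409.7 and 383 FPKM beside 348 and 312 in control (4.01, adjusted p = 0.00168). The most abundant members, *Mup3* and *Mup22*, did not pass (-0.35 and -0.16). *Cish* did not pass without COS+APAP replicate 2 or 3 or APAP replicate 1, and *Socs2* and *Igfbp2* without COS+APAP replicate 2 or 3.

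Other large differences lay outside these groups. Among the highest rises, *Upp2*, a uridine phosphorylase, was at 2.12 and 2.25 FPKM in APAP, 24.1 and 23.6 in COS+APAP and 35.5 and 29.7 in control (3.48, SE 0.14, adjusted p = 0.00151). *Lhpp*, a phosphatase, was at 3.15 and 1.98, 32.6 and 28.8 and 41.2 and 42.5 in the same order (3.60, adjusted p = 0.00457). Among the deepest falls, *Plscr1*, a phospholipid scramblase, was at 104 and 48.3 in APAP, 3.49 and 4.20 in COS+APAP and 3.85 and 3.58 in control (-4.28, adjusted p = 0.00635). Thrombomodulin, *Thbd*, fell by 3.92. The microRNA gene *Mir22*, whose short entry can take reads of its host transcript, was at 28.1 and 29.9 in APAP, 0.16 and 0.14 in COS+APAP and 0.11 and 0.10 in control (-6.67). *Rn7sk*, a nuclear RNA without a poly(A) tail that restrains transcription elongation, was at 112 and 109.9 in APAP, 2.26 and 8.36 in COS+APAP and 7.81 and 2.02 in control (-4.34, adjusted p = 0.0231), in libraries made from poly(A) RNA. *Rn7sk* did not pass without COS+APAP replicate 2 or APAP replicate 1 or 3.

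The widest difference among the named genes was that of 1 of 2 entries of *Septin2* that overlap on chromosome 1. The entry from 93478993 to 93509733 was listed at 0 in the APAP and control libraries and held 2673 and 3587 estimated counts in COS+APAP. The other entry, from 93478964 to 93510260, held 403 and 111 counts in COS+APAP, 2522 and 2608 in APAP, and 3401 and 3673 in control. Added together they came to 3076 and 3698 counts in COS+APAP, so that the counts stood in one entry or the other by group, and the sums lay within the range of the other 4 libraries or just above it.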

How the data were processed

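Poly(A) RNA of mouse liver was sequenced as paired-end libraries, 2 per group. HISAT2 2.0 and StringTie 1.3.0 stand in the submitters' processing notes, and the genome build is not given in sources used here. Of the 55401 gene identifiers, 55141 are also in GENCODE M21, 94.2% of them with the same coordinates. Per the file headers, the authors deposited FPKM and estimated counts per gene for each library. Of the deposited estimated counts from 1 to 40, 31.6% to 35.6% a library were multiples of 4, and 766 to 990 entries had a count of 4 beside 290 to 350 with 3, so a count need not stand for 1 fragment, and dividing by 4 was tried as an alternative. A further 6 value columns matched no sample and were not used. Where entries shared a symbol (134 entries), the one with the highest mean FPKM stood for it.

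Counts were rounded, scaled by TMM and fitted with edgeR 4.0.16 (R 4.3.3) in 1 quasi-likelihood model of 3 groups over the 6 libraries, with 3 residual degrees of freedom. Fold changes are log2 values of this model, and SE was obtained by dividing their size by the root of the F statistic. The filter was a mean of 1 FPKM over the 4 libraries compared, and p-values were adjusted over all 9852 genes. Alternatives used DESeq2 1.42.0, limma 3.58.1 on log2(FPKM + 1) and log2(FPKM + 0.1), other scalings and filters, the 4 libraries alone and each library left out in turn. A term for the replicate number was added after seeing the data.

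The comparison and the 57 gene lists were chosen with earlier results of these data known. Named genes were the 15 largest rises and falls with a mean of at least 5 FPKM, up to 4 called and 2 other members of each list, a few fixed names, and the 10 stress genes with the widest gap between the COS+APAP libraries. Genes with near copies (*Saa1* and *Saa2*, major urinary proteins, *Cyp2a*, *Cyp2c*, *Gst*, *Serpina3*, globins, *Hspa1a* and *Hspa1b*) can exchange reads, so their values are uncertain. Promoters are RefSeq sequences of GRCm38.p6, 250 bases before the start, for 27025 genes. Some genes are not reported here.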

Additional observations from a re-analysis of the deposited data

How the results depend on the processing

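All 2264 called genes kept their direction under every alternative tried that tested them. As their groups did not overlap in FPKM, this was largely fixed beforehand. The counts of 1134 higher and 1130 lower genes were 1734 and 1786 with the DESeq2 Wald test and 544 and 543 among genes with a mean of at least 5 FPKM, where fewer genes were tested. They were 286 to 610 higher and 330 to 656 lower with 1 library left out, where fewer samples entered the fit. In 7 other alternatives they lay within 1.5-fold, at 948 to 1148 higher and 1009 to 1236 lower. The genes called were not all the same. Without the FPKM filter, 65.5% of the higher and 70.6% of the lower calls were kept, and with the 4 libraries alone 77.9% and 81.5%. In the rest of the 7, 83.1% to 99.6% of the higher and 94.4% to 99.9% of the lower calls were kept. Of the 171 genes named in the text, 131 were called, and outside the fits that leave out a library, at most 11 of them lost the call with another scaling, filter, test or set of libraries (the 4 libraries alone). Genes that changed sign were among the 40 not called, and the cause was not tested. With each library left out in turn, their log2 fold changes ranged as follows. *Chac1* ran from -2.29 to 0.08, *Cyp3a11* from -0.81 to 0.08, *Fabp4* from -0.28 to 0.12, *Hnf4a* from -0.47 to 0.02 and *Isg15* from -0.31 to 0.00. *Mt1* ran from -0.33 to 0.03, *Nnt* from -0.93 to 4.19, *Nqo1* from -0.01 to 0.08, *Scd1* from -1.06 to 0.07 and *Serpina3k* from -0.10 to 0.10. *Srxn1* ran from -3.14 to 0.67, *Stab2* from -0.15 to 0.22, *Sult1a1* from -0.50 to 0.01 and *Ugt2b5* from -0.24 to 0.14. *Nnt* was at -0.02 with library totals and *Serpina3k* at 0.01 among genes of at least 5 FPKM. COS+APAP and APAP share only the replicate number 3. A fit with a replicate block, number 3 against the others, was chosen after seeing the data and treats numbers 1 and 2 as alike. It called 824 genes higher and 834 lower, and 12 of the 131 named calls were lost, with 2 residual degrees of freedom. Differences between replicate 3 and the other library correlated across genes at -0.04 between COS+APAP and APAP, 0.03 between COS+APAP and control and 0.00 between APAP and control. A correlation over all genes cannot show a factor that touches few of them, and *Nnt* was higher in replicate 3 of every group. Whether libraries of 1 replicate number share a batch or origin was not tested. With 2 libraries a group, the precision rests on few samples, and differences between groups that go with the title prefix or the labelling cannot be told apart from COS.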

Other observations

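Glucuronidation and sulfation remove most of a dose of APAP before it is oxidised. Of 25 tested genes of this list 3 rose (12.0%, beside 11.5% of all genes) and 1 fell (beside 11.5%), shares near or below those of all genes. *Sult1d1*, a sulfotransferase, was at 10.2 and 18.6 FPKM in APAP, 44.8 and 46.4 in COS+APAP and 22.5 and 14.98 in control and rose by 1.71 (edgeR adjusted p = 0.0213). *Ugt1a9*, a glucuronosyltransferase that shares exons with the other *Ugt1a* transcripts, was at 111 and 91.9, 44.5 and 48.9 and 81.9 and 67.4 and fell by 1.09 (adjusted p = 0.0137). The more abundant *Ugt2b5* and *Sult1a1* did not pass (-0.03 and -0.22). *Sult1d1* and *Ugt1a9* did not pass without COS+APAP replicate 2 or 3 or APAP replicate 1.

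The main exporters of bile salt and of phospholipid into bile were lower in COS+APAP, though their lists moved in both directions. Of 17 tested drug transporters 2 rose and 2 fell (11.8% each, beside 11.5% of all genes each). The rises included another ATP-driven transporter. Genes of bile acid synthesis and transport also rose as well as fell (median 0.22). The bile salt export pump *Abcb11* was at 48.6 and 43.9 FPKM in APAP, 29.5 and 24.0 in COS+APAP and 60.4 and 67.4 in control, so that COS+APAP was the lowest group, and fell by 0.76 (adjusted p = 0.0216). *Abcb4*, which exports phospholipid into bile, fell by 0.80, from 46.5 and 43.8 to 28.9 and 22.0 beside 22.2 and 22.7 in control. *Mttp*, which loads lipid onto apolipoprotein B, was at 54.1 and 45.5 in APAP, 21.1 and 17.4 in COS+APAP and 23.6 and 21.2 in control and fell by 1.34 (adjusted p = 0.00824), and *Apom* fell by 1.69. Of 23 tested genes of apolipoproteins and lipoprotein assembly 6 fell and 1 rose, and the 6 falls were 2 without COS+APAP replicate 2 and 3 without COS+APAP replicate 3 or APAP replicate 1. The 6 falls were 26.1% and the 1 rise 4.35% of that list, beside 11.5% of all genes each. *Sox9*, a factor of bile duct cells and of injured hepatocytes, fell from 6.71 and 3.81 to 1.15 and 1.77 beside 0.53 and 0.85 in control (adjusted p = 0.0306). *Inhbb*, which encodes a subunit of activin B, was at 5.41 and 4.28, 0.53 and 0.71 and 0.10 and 0.12 and fell by 2.93 (adjusted p = 0.00576). Of 29 tested genes of amino acid breakdown 6 rose and 0 fell, a count that was 0 without COS+APAP replicate 2 or 3 or APAP replicate 1 and 1 without APAP replicate 3. The 6 rises were 20.7% of the list, beside 11.5% of all genes. Among them *Haao*, an enzyme of tryptophan breakdown, went from 25.0 and 35.9 to 57.3 and 52.5 beside 80.3 and 75.7 in control (0.89, adjusted p = 0.0229). *Abcb11*, *Sox9* and *Haao* did not pass without COS+APAP replicate 2 or 3 or APAP replicate 1, and *Abcb4* without COS+APAP replicate 3 or APAP replicate 1 or 3.

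The genes that fell had longer gene bodies than the others. The median span from start to end in GENCODE M21 was 26.5 kb for the genes that fell, 14.4 kb for those that rose and 16.5 kb for all tested genes, and the exonic lengths were 4.48, 3.39 and 3.55 kb. Among differences of at least 2-fold the spans were 19.2 kb for falls and 12.0 kb for rises. These medians are descriptions, and no test was made of them.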
